A study of Homo sapiens with 6 samples.

Results

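SAMD11 and its nearest neighbours at 1p36.33, close to the end of the short arm of chromosome 1, were examined in J82 cells with and without a FOXC1 knockout (KO). The 7 genes taken, out of 57820 in the count table, were SAMD11, the adjacent long noncoding gene ENSG00000223764.2 (LINC02593), NOC2L, KLHL17, PLEKHN1, HES4 and AGRN. All 7 passed the filter on low counts that left 15647 genes. They were chosen by position next to SAMD11 and selected on the counts of the same 6 libraries, in which SAMD11 and LINC02593 differed between control and KO, so the comparison of control with KO is a description for them and carries no test. J82 is an established line of human bladder cancer cells. The control group (genotype control) held 3 RNA-seq libraries and the FOXC1 KO group 3, and the cells of both groups were grown in DMEM with serum. Per the labels LentiCRISPRv2, a lentiviral CRISPR/Cas9 vector, had been used for the knockout, and per the study's methods the controls carried a vector, a single guide RNA was used and the cells were selected with puromycin. The loss of the protein had been checked by western blot per the labels, and the number of knockout clones behind the libraries was not given in the sources used here. Nothing stated that the libraries of a group came from separate cultures, so the spread between them may be technical.

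The libraries held 18408134 to 25350908 counts, and the one with the fewest was FOXC1 KO replicate 1. FOXC1 encodes a forkhead transcription factor, and its transcript lay between 16.9 and 19.3 CPM (counts scaled to a common library size) in control and between 21.1 and 24.1 CPM in KO libraries. The targeted gene was therefore not lower at the RNA level but slightly higher. Its log2 ratio of KO to control was 0.302 (SE 0.091, adjusted p 0.0127 in edgeR), which is less than 1.3-fold. Its transcript does not check the labels. Epithelial keratins and urothelial factors, looked for because J82 is a bladder cancer line, were present in part. Of 16 such markers, 7 averaged 1 CPM or more (KRT7, KRT8, KRT18, KRT19, GATA3, PPARG and EPCAM), the other uroplakin genes, KRT5, KRT20, TP63 and CDH1 stayed under 1 CPM, and UPK3A had no count. All 7 were tested and 6 of them (85.7%) were called lower (adjusted p under 0.05 in edgeR and more than 1.3-fold), against 8.39% of all tested genes. The summed level over the list was 3178 to 4000 CPM in control and 2488 to 2765 CPM in KO libraries. Of 11 matched markers of other cell types, 0 reached a mean of 1 CPM, CD3E was at 0, and the summed level was 1.38 to 1.52 CPM in control and 2.3 to 3.8 CPM in KO libraries. Of 3 tested among them, the endothelial cadherin gene CDH5 was called higher, as were 7.57% of all tested genes. CDH5 had 0.0131 CPM in control and 0.932 CPM in KO libraries (0 to 26 counts). The part of these shifts in the results given here was not tested.

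The members do unlike things. SAMD11 encodes a nuclear protein with a sterile alpha motif (SAM), a domain through which proteins of the Polycomb group polymerize, and it is best known from photoreceptors. NOC2L encodes a nucleolar protein that takes part in ribosome assembly and inhibits histone acetylation, and KLHL17 encodes a substrate adaptor of the CUL3 ubiquitin ligase. PLEKHN1 encodes a protein with pleckstrin homology domains. HES4 encodes a basic helix-loop-helix repressor of the HES family, many of which are switched on by Notch through the DNA-binding factor RBPJ. AGRN encodes agrin, a heparan sulfate proteoglycan of basement membranes that organizes the neuromuscular synapse through LRP4 and MuSK.

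The members span chr1:852245-991498 in GRCh37, the assembly to which the reads had been aligned (hg19). SAMD11 (ENSG00000187634.6, chr1:859303-879955) and LINC02593 (chr1:852245-856396) lie on opposite strands and are transcribed away from each other, from RefSeq starts 6039 bases apart. SAMD11 and NOC2L (ENSG00000188976.6, chr1:879583-894689) meet tail to tail and share 373 exonic bases, which is 8.94% of the exonic length of SAMD11. NOC2L and KLHL17 (ENSG00000187961.9, chr1:895964-901099) again point away from each other, with starts 1328 bases apart. PLEKHN1 (ENSG00000187583.6, chr1:901862-911245) shares 668 exonic bases (19.4%) with PERM1 on the opposite strand. HES4 (ENSG00000188290.6, chr1:934342-935552) and AGRN (ENSG00000188157.9, chr1:955500-991498) lie farther along. Whether the counting used strand was not given in the sources used here, so reads in the shared stretches cannot be assigned to a gene with certainty.

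The 250 bases before the RefSeq start (GRCh38.p14) are shown for SAMD11 and LINC02593, whose levels differed most between the groups, with each CG dinucleotide in capitals. They are followed by HES4, in which the capitals mark a match to the RBPJ core. The windows are chr1:925481-925730 (plus strand), chr1:919693-919942 (minus strand) and chr1:1000098-1000347 (minus strand). The first lies in an intron of longer annotated isoforms of SAMD11. The second (chr1:855073-855322 in GRCh37) lies inside the annotated span of LINC02593, downstream of its outermost start at 856396.
SAMD11: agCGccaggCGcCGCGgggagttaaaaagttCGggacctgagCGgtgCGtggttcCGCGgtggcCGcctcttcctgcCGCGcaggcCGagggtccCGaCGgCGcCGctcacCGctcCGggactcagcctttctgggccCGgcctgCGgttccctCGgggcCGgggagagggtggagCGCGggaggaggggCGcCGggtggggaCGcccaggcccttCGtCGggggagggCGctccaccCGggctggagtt
LINC02593: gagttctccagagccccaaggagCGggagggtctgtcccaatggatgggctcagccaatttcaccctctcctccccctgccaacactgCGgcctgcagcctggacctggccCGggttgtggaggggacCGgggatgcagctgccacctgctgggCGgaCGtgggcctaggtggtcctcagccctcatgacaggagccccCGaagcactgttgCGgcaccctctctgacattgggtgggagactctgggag
HES4: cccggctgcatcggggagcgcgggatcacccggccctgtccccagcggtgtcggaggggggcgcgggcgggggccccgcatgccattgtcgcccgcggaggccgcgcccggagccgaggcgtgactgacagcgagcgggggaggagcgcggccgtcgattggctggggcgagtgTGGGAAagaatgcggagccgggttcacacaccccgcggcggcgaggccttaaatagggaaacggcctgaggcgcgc
Of the 7 members 6 had a RefSeq window, and AGRN had none. Over the whole window of 300 bases, which adds 50 bases after the start, SAMD11 held 38 CG dinucleotides and LINC02593 held 11, against a median of 14 over 35116 such windows. The ratio of observed to expected CG was 0.923 for SAMD11 and 0.33 for LINC02593, and the median of all windows was 0.579. NOC2L (44), HES4 (44) and KLHL17 (32) were rich in CG as well, and PLEKHN1 (17) lay near the median. The window of SAMD11 was thus closer in CG content to those of NOC2L, HES4 and KLHL17 than to that of LINC02593. Neither the SAMD11 nor the LINC02593 window lies at the outermost annotated start of its gene.

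Forkhead factors bind sequences around TGTTTAC, and this core was looked for on both strands of the 6 windows. None held TGTTTAC, which occurred in 3.42% of all windows, or the shorter TGTTTA contained in it, which occurred in 12.3%. The RBPJ core TGGGAA was found in HES4 alone among the 6, at position -76 from the start, and in 24% of all windows. These matches describe the letters of short windows and do not show binding.

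SAMD11 was lower in the KO libraries. It had 225, 183 and 190 counts in control replicates 1 to 3 (10.0, 7.49 and 7.47 CPM) and 44, 52 and 49 counts in the KO replicates (2.39, 2.06 and 2.08 CPM). The groups were far apart, and the highest KO library lay below the lowest control library. The mean was 8.33 ± 1.47 CPM in control and 2.18 ± 0.185 CPM in KO libraries (SD, n = 3), which is 3.83-fold lower, with a log2 ratio of KO to control (log2 change) of -1.94 (SE 0.154) in the edgeR fit across all genes. Over the 9 pairs of a KO with a control library the ratio ran from 0.206 to 0.32. The spread of the KO libraries (8.47% of their mean) was under the 14.4% that counting alone gives at this depth, while the control libraries varied by 17.7%, where counting gives 7.08%. Control replicate 1 was the high one of its group, and without it the log2 change was -1.80. Of all tested genes 28 (0.179%) had a lower log2 change.

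LINC02593 was lower as well. It had 73, 71 and 84 counts in control (3.25, 2.91 and 3.30 CPM) and 22, 35 and 15 counts in KO libraries (1.2, 1.39 and 0.637 CPM). The groups did not overlap, although the KO libraries were uneven and the counts low. The mean was 3.15 ± 0.215 CPM in control and 1.07 ± 0.39 CPM in KO libraries (SD, n = 3), a log2 change of -1.55 (SE 0.215). KO replicate 3 was the lowest library, and without it the log2 change was -1.28. The spread of the KO libraries was wider than the 20.4% of the mean that counting alone gives. Only 80 tested genes (0.511%) had a lower log2 change.

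**Figure D1:**
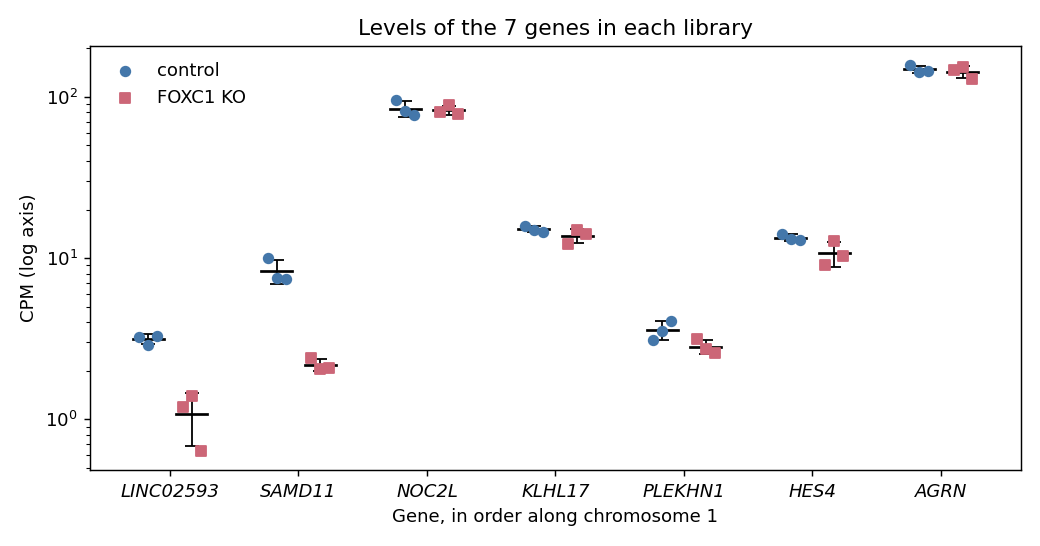
CPM of the 7 genes in each library on a log axis (circles, 3 control libraries; squares, 3 FOXC1 KO libraries; lines and bars, mean ± SD). SAMD11 and LINC02593 stand apart between the groups. The KO points of HES4 lie below its control points, KO replicate 2 only just, and the points of the other 4 genes overlap.

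The lower level of SAMD11 and LINC02593 did not extend to the gene on the far side of SAMD11. NOC2L had 95.3, 81.4 and 76.9 CPM in control and 80.0, 88.5 and 78.8 CPM in KO libraries, from 1472 to 2233 counts. The groups overlapped fully, with means of 84.6 ± 9.6 and 82.4 ± 5.32 CPM (SD, n = 3). The log2 change was -0.036 (SE 0.081), and its sign turned without control replicate 1 (0.051).

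Because both genes are counted in the same library, their ratio does not depend on scaling. There were 10.5, 9.2 and 9.71 SAMD11 counts per 100 NOC2L counts in control and 2.99, 2.33 and 2.64 in KO libraries. The mean of this ratio was 9.81 ± 0.665 in control and 2.65 ± 0.33 in KO libraries (SD, n = 3), so the control libraries, uneven in SAMD11 level, were closer together once set against NOC2L. LINC02593 had 3.41, 3.57 and 4.29 counts per 100 NOC2L counts in control and 1.49, 1.57 and 0.809 in KO libraries. Set against SAMD11 instead, LINC02593 had 32.4, 38.8 and 44.2 counts per 100 in control and 50, 67.3 and 30.6 in KO libraries. That last ratio overlapped between the groups (38.5 ± 5.89 and 49.3 ± 18.4, SD, n = 3), so at this depth the divergent pair was lower by amounts that could not be told apart.

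**Figure D2:**
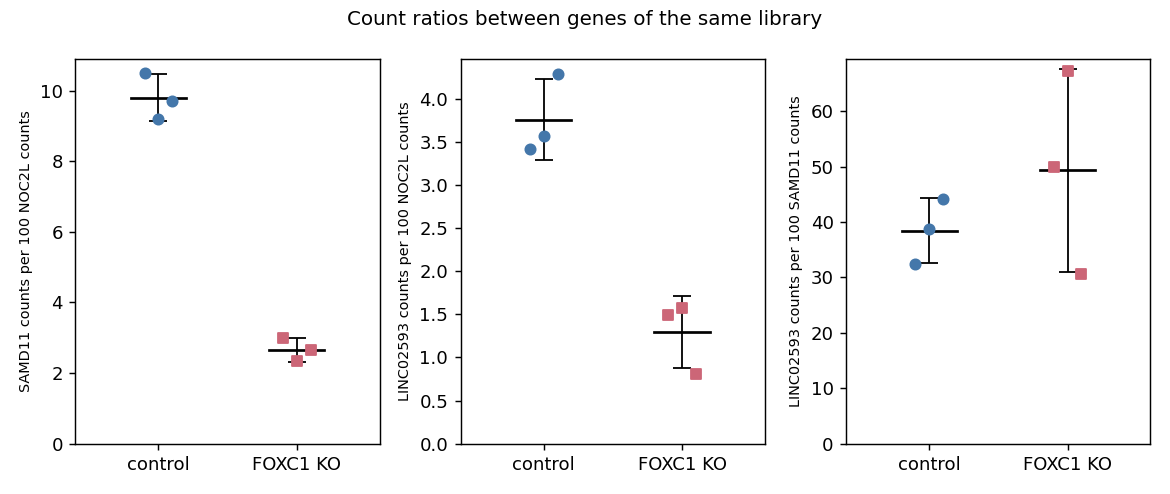
Count ratios within each library for 3 control (circles) and 3 FOXC1 KO libraries (squares), with mean ± SD and axes from 0. SAMD11 and LINC02593 were both lower relative to NOC2L in KO libraries, while LINC02593 relative to SAMD11 overlapped between the groups.

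KLHL17, which starts next to NOC2L, had 15.8, 15.0 and 14.6 CPM in control and 12.2, 14.9 and 14.1 CPM in KO libraries. The groups overlapped through KO replicate 2, and the log2 change was -0.13 (SE 0.099), reduced to -0.065 without KO replicate 1. PLEKHN1 had few counts (58 to 104), with 3.12, 3.52 and 4.09 CPM in control and 3.15, 2.74 and 2.59 CPM in KO libraries. Its lowest control library lay below its highest KO library, and the log2 change was -0.35 (SE 0.16). PERM1, which overlaps PLEKHN1 and was named after its values were seen, had 0.967 ± 0.12 CPM in control and 0.706 ± 0.105 CPM in KO libraries (SD, n = 3), with a log2 change of -0.44 (adjusted p 0.247 in edgeR).

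HES4 had 14.2, 13.1 and 12.9 CPM in control and 9.02, 12.8 and 10.3 CPM in KO libraries. All KO libraries lay below all control libraries, but KO replicate 2 fell short of the lowest control library by very little (a ratio of 0.993 in the nearest pair). The log2 change of -0.31 (SE 0.113) was under the 1.3-fold threshold. KO libraries varied by 18.1% of their mean and control libraries by 4.95%, and the log2 change was -0.21 without KO replicate 1 and -0.46 without KO replicate 2. The size of the HES4 difference thus rested on which KO library was kept.

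AGRN, the most abundant member in CPM, had 157, 142 and 145 CPM in control and 147, 154 and 129 CPM in KO libraries. The groups overlapped, with 148 ± 7.64 and 143 ± 12.8 CPM (SD, n = 3). The log2 change was -0.049 (SE 0.074), and its sign turned without KO replicate 3 (0.015).

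Of the 7 members, SAMD11 and LINC02593 were among the genes called lower (adjusted p under 0.05 and more than 1.3-fold), and 0 members were called higher. Across all tested genes 8.39% were called lower and 7.57% higher, and no weight is put on the members' count, because the members were named from this contrast. More than 2-fold lower were the same 2 members, and 2.05% of all tested genes were called at that fold. The KO libraries lay below the control libraries without overlap for 3 members (SAMD11, LINC02593 and HES4), against 20.8% of all tested genes (41.3% did not overlap in either direction), which is likewise a description. Between HES4 and AGRN lies ISG15, an interferon-induced ubiquitin-like modifier and the most abundant gene of the interval. ISG15 had 366, 314 and 308 CPM in control and 260, 278 and 249 CPM in KO libraries, without overlap. This was a log2 change of -0.33 ± 0.074 (SE), with an adjusted p of 0.00106 in edgeR, under the 1.3-fold threshold. The other 4 genes of the interval had at most 13 counts in a library and were not tested.

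The order of the members' levels was compared per kilobase of exon (RPKM), computed from a later annotation than the one used for counting. In control libraries NOC2L (15.3 ± 1.73 RPKM, SD, n = 3) and AGRN (13.8 ± 0.71) came first, and their ranges overlapped. HES4 followed at 12 ± 0.595 RPKM, KLHL17 at 4.45 ± 0.174, SAMD11 at 2 ± 0.353, PLEKHN1 at 1.04 ± 0.141 and LINC02593 at 0.76 ± 0.0518 RPKM, each without overlap with the next. In KO libraries SAMD11 changed places with PLEKHN1. SAMD11 then had 0.522 ± 0.0442 RPKM, below PLEKHN1 (0.819 ± 0.0843) and above LINC02593 (0.259 ± 0.0939), again without overlap. The upper part of the order was kept, with NOC2L, AGRN, HES4 and KLHL17 at 14.9, 13.3, 9.6 and 4.04 RPKM. Fewer transcripts per cell and fewer expressing cells cannot be told apart in bulk libraries.

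To place the members in their surroundings, the other genes with their lowest coordinate within 1 Mb of that of SAMD11 were taken, of which 47 were tested. FNDC10, which encodes a protein with a fibronectin type III domain, fell from 9.14 to 5.88 CPM, with a log2 change of -0.63 (adjusted p 0.000153 in edgeR). The noncoding ENSG00000269737 fell from 0.837 to 0.30 CPM, with a log2 change of -1.42 (adjusted p 0.00328 in edgeR). These were the only 2 called lower (4.26%) in the edgeR fit, and 4 were called lower without control replicate 1. None was called higher by edgeR or DESeq2. At an unadjusted p under 0.05 in edgeR, 15 were lower and 0 higher. The share of all tested genes at that level is not given here, so no weight is put on these counts. Yet 39 of the 47 (83%) had a log2 change below zero, where 50.1% of all tested genes did. Their median was -0.13, and that of all tested genes was -0.001. KO libraries lay below control libraries without overlap for 15 of them and above for 1, against 20.8% and 20.5% of all tested genes. The median ran from -0.20 to -0.11 over 15 alternatives, and the lowest value was the one without KO replicate 2. Small shifts in one direction were therefore common around SAMD11, and SAMD11 and LINC02593 lay well below the median of these genes, with ENSG00000269737 close to LINC02593.

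The transcripts of these neighbours had a median GC content of 59.4%, against 47.5% for all tested genes, so GC content was set beside this shift. Over 15270 tested genes with a value (97.6%), those of highest GC content (57.1% and above, 1 of 5 equal classes) had a median log2 change of 0.011. Of the 47 neighbours, 27 belonged to that class, with a median of -0.086 and 21 below zero. The 20 neighbours of lower GC content had a median of -0.19, with 18 below zero. In the other 4 classes of all genes, from low to high GC content, the median was 0.051, -0.017, -0.030 and -0.018. The part of GC content in the shift of the neighbourhood was not tested. Several of these neighbours (WASH7P, MTCO1P12, CDK11A and CDK11B) have near-identical copies elsewhere, and their counts are uncertain.

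**Figure D3:**
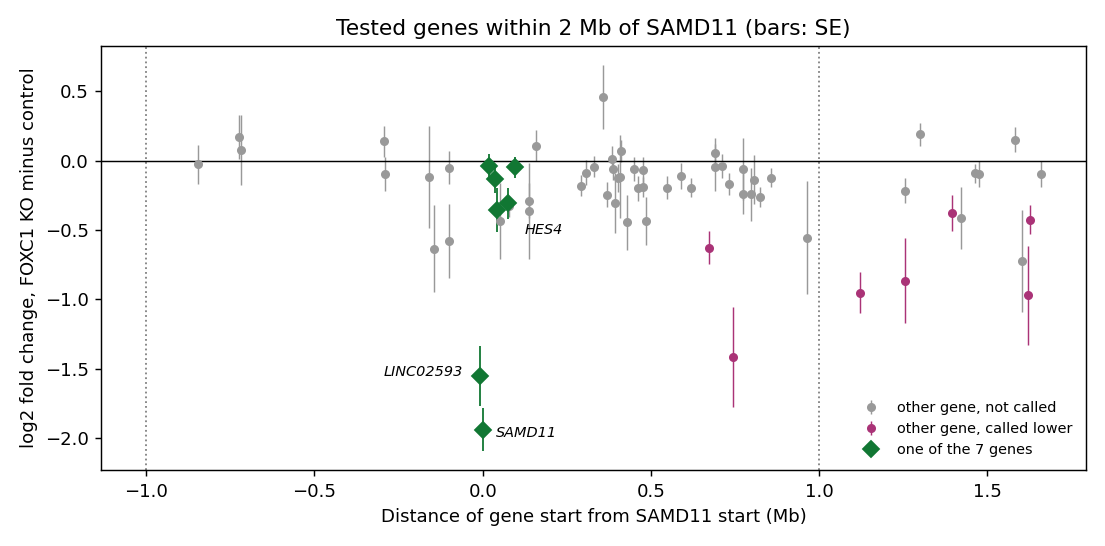
Log2 change (FOXC1 KO minus control, bars SE) of tested genes against the distance of their start from that of SAMD11 in Mb, with dotted lines at 1 Mb (diamonds, the 7 genes; circles, other genes, dark where called lower). Start here means the lowest coordinate of a gene, whichever its strand. SAMD11 (-1.94) and LINC02593 (-1.55) are the lowest within 1 Mb, the neighbour ENSG00000269737 (-1.42) lies close to LINC02593, and most others sit slightly below zero.

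The genes whose profile over the 6 libraries was nearest to that of SAMD11 were then sought among the 13615 tested genes that averaged 1 CPM or more. Likeness was the root mean square distance of mean-centred log2 CPM, so genes lower in KO libraries come first by construction. FSTL4, a follistatin-like gene, was nearest (distance 0.0766), with 4.69 ± 0.828 CPM in control and 1.26 ± 0.136 CPM in KO libraries (SD, n = 3). PCDH1, a protocadherin gene, followed (0.166), then the drug efflux pump gene ABCB1 (0.173), the VEGF receptor gene FLT1 (0.175) and SULF1 (0.199), which encodes an enzyme that trims heparan sulfate. None of the 5 lies on chromosome 1. LINC02593, despite its place next to SAMD11, ranked 78 (0.381), with its KO libraries less even than those of SAMD11. HES4 (rank 1679), PLEKHN1 (1753), KLHL17 (3663), AGRN (5100) and NOC2L (5408) were far down the order.

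**Figure D4:**
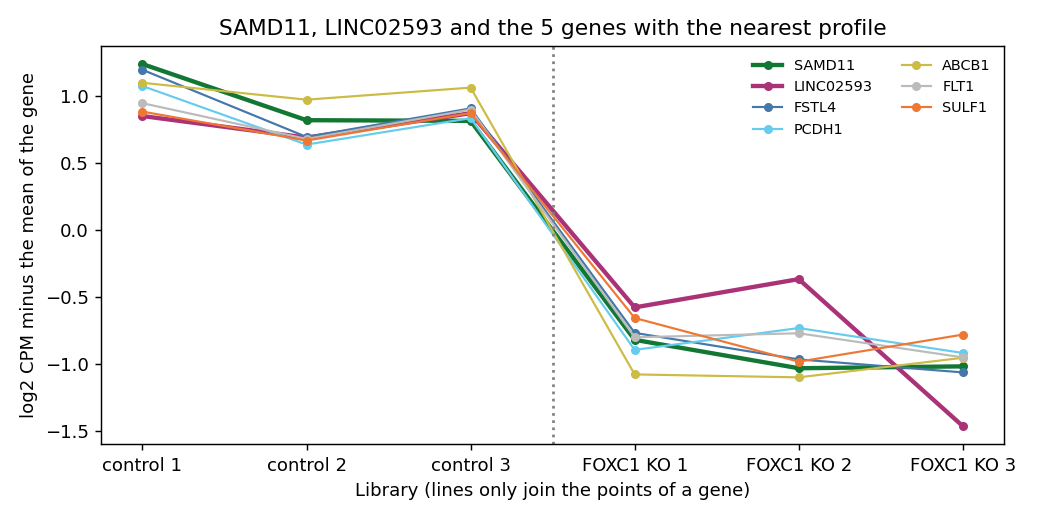
Mean-centred log2 CPM in each of the 6 libraries for SAMD11, LINC02593 and the 5 genes nearest to SAMD11 (lines join the points of a gene). The 5 genes follow SAMD11 closely, while LINC02593 departs from it mainly in the KO libraries.

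Genes that work with each member were described from lists drawn up by function, with earlier results of these data known. The shares of called genes in these lists are therefore a description. Among Polycomb and SAM-domain relatives of SAMD11, 23 of 26 were tested, 2 fell (8.7%) and 1 rose (4.35%), with a median log2 change of 0.001. These shares lie near or below those of all tested genes (8.39% and 7.57%). SFMBT2, a Polycomb protein with malignant brain tumor repeats and a SAM domain, fell from 5.15 to 1.06 CPM, with a log2 change of -2.24 (SE 0.204, adjusted p 8.75e-10 in edgeR). L3MBTL4, of the same domain make-up, fell as well (-0.74, adjusted p 0.000204), and CBX6, a reader of Polycomb-marked histones, rose (0.39, adjusted p 0.000403), although CBX6 is close to the 1.3-fold threshold and 0 genes of the list were called higher without control replicate 2 or 3 or without KO replicate 1 or 2. The polyhomeotic genes, whose products carry SAM domains of their own, were level, with log2 changes of -0.090 for PHC1, -0.096 for PHC2 and 0.071 for PHC3. The catalytic and core genes EZH2 (-0.12), SUZ12 (-0.017), RNF2 (0.053) and BMI1 (0.062) did not pass the test either. CBX7 (-0.35, adjusted p 0.0069 in edgeR) and SCMH1 (0.25, adjusted p 0.0158 in edgeR) passed the adjusted p but missed the 1.3-fold threshold. CBX7, SCMH1 and the 7 genes named before them were chosen after their values were seen.

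None of the 16 nucleolar partners of NOC2L was called by edgeR or DESeq2, where edgeR called 8.39% of all tested genes lower and 7.57% higher. The median of these partners was 0.059. At an unadjusted p under 0.05 in edgeR, 3 of them were lower and 2 higher. NOLC1 (0.29, adjusted p 0.00188 in edgeR) and PES1 (0.26, 0.0173) were higher and missed only the 1.3-fold threshold. So did NCL (-0.21, adjusted p 0.0215 in edgeR) and EMG1 (-0.20, 0.0338), which were lower. Of 22 CUL3 adaptors related to KLHL17, KLHL24 (-0.43, adjusted p 7.76e-05 in edgeR) and KLHL12 (-0.41, adjusted p 0.000142) fell, and the median was 0.082. These 2 genes (9.09%) lie near the share of all tested genes called lower (8.39%). Only 1 was called lower without control replicate 2 or 3 or without KO replicate 2, since both lie near the 1.3-fold threshold. None was called higher by edgeR or DESeq2, although 6 were higher at an unadjusted p under 0.05 in edgeR. Among those, KLHL5 (0.33, adjusted p 0.00108 in edgeR), KLHL42 (0.31, 0.00419) and KLHL36 (0.25, 0.0173) missed only the 1.3-fold threshold. The same held for KLHL8 (0.27, adjusted p 0.0388 in edgeR) and KEAP1 (0.20, 0.0481). NOC2L (-0.036, SE 0.081) and KLHL17 (-0.13, SE 0.099) were both opposite in sign to the medians of their lists. Neither gene was called and all of these values were small, so no weight is put on the signs.

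Around HES4, 21 of 31 Notch pathway genes were tested, of which 3 fell (14.3%) and 4 rose (19%), with a median of 0.083. Of all tested genes, 8.39% were called lower and 7.57% higher. The number called lower was 2 in DESeq2, 2 when low counts were kept or a mean of 50 counts was required, and 2 on leaving out any 1 library other than control replicate 1. Of the ligands, JAG2 fell from 2.09 to 0.89 CPM (-1.22, adjusted p 9.9e-05 in edgeR). Of the receptors, NOTCH1 fell from 10.2 to 6.57 CPM (-0.63, adjusted p 0.000212). RBPJ, the factor through which Notch acts on DNA, rose from 89.9 to 128 CPM (0.50, adjusted p 3.35e-06). Of the HES genes, HES7 rose from a low level of 1.11 to 2.44 CPM (1.15, adjusted p 9.52e-05), HES1 had 3.18 CPM in control and 2.30 CPM in KO libraries (-0.47, adjusted p 0.0332) and HES6 had 10.3 and 10.1 CPM (-0.026). The call of HES1 was lost in DESeq2 (adjusted p 0.174), when low counts were kept (adjusted p 0.0541 in edgeR) and on leaving out any 1 library other than control replicate 1 (adjusted p 0.0582 to 0.209 in edgeR). HES1 and HES6 were chosen after their values were seen, as were LFNG (0.60) and NRARP (0.80), which rose. HES4 itself had 13.4 ± 0.665 CPM in control and 10.7 ± 1.94 CPM in KO libraries (SD, n = 3).

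Around AGRN, 20 of 24 agrin receptors and basement membrane partners were tested. Of these 6 rose (30%) and 1 fell (5%), against 7.57% and 8.39% of all tested genes, and the median was 0.22. The number that rose ran from 4 to 7 when 1 library was left out. LRP4, the agrin receptor, rose from 1.80 to 3.71 CPM (1.03, SE 0.171, adjusted p 2.87e-05 in edgeR), while MUSK was not among the tested genes. The collagen IV chains COL4A1 (from 110 to 217 CPM, 0.99, adjusted p 6.78e-12) and COL4A2 (from 226 to 373 CPM, 0.72, adjusted p 3.6e-08) and the collagen XVIII gene COL18A1 (0.61, adjusted p 2.02e-05) rose. The laminin chain gene LAMA1, chosen after its value was seen, fell (-0.61, adjusted p 3.91e-05). The other agrin receptor, dystroglycan, had a log2 change of 0.024 in its gene DAG1. AGRN itself (-0.049) was level, as was its receptor gene DAG1, while LRP4, COL4A1, COL4A2 and COL18A1 were higher and LAMA1 was lower.

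**Figure D5:**
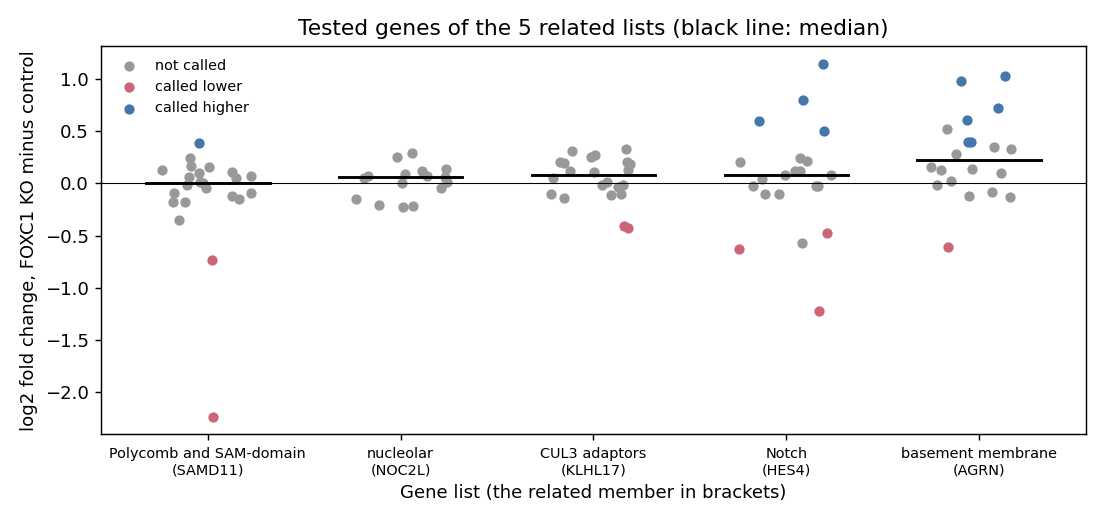
Log2 change (FOXC1 KO minus control) of tested genes in 5 lists related to the members, with black lines at the medians and color for genes called lower or higher. The lists around SAMD11 and NOC2L center near zero, and called genes are most frequent in the Notch and basement membrane lists.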

How the data were processed

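RNA-seq libraries of J82 cells (3 control, 3 FOXC1 KO, grouped by sample title) had been made with the KAPA mRNA HyperPrep kit. The authors aligned paired reads to hg19 with STAR and assigned them to GENCODE version 19 genes with featureCounts (Subread), and deposited raw read counts per gene. Versions, strand setting and the handling of multi-mapping reads are not given in the sources used here. All 57820 rows named a gene, and the library totals limit precision, so counting errors quoted cover counting only. Members and lists were chosen with earlier results of these data known.

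Genes were filtered with filterByExpr, normalized with TMM and tested with edgeR 4.0.16 in R 4.3.3, by quasi-likelihood F tests with robust dispersion and no covariate. Calls needed a fold change above 1.3 together with an adjusted p (Benjamini-Hochberg) below 0.05. CPM used TMM-scaled totals, RPKM the union of exons, and SEs came from the F statistic. Symbols and coordinates came from GENCODE 44 mapped to GRCh37, which matched 55538 identifiers (96.05%). Promoter windows are RefSeq's. The procedure was tested on simulated counts.

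Besides the members, named genes are FOXC1, genes between the members with a mean of at least 1 CPM, up to 4 called genes per list with the smallest p, and the 5 nearest to SAMD11. Of 12 markers of other cell types and 26 Polycomb genes, 1 each found no row. Alternatives were DESeq2 1.42.0, RLE factors, library size alone, other filters, thinning, a replicate block, leaving out each library, and other thresholds and windows.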

Additional observations from a re-analysis of the deposited data

How the results depend on the processing

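SAMD11 (log2 change from -2.11 to -1.80) and LINC02593 (-1.82 to -1.28) stayed lower under all 13 alternative fits. Leaving out 1 library at a time turned NOC2L (-0.10 to 0.051, higher without control replicate 1) and AGRN (-0.104 to 0.015, higher without KO replicate 3), both near zero throughout. Over those 6 fits the genes called lower over all genes ranged from 1201 to 1408 and those called higher from 1124 to 1231. With no fold change threshold 2233 genes were lower and 2372 higher, and at more than 2-fold 321 and 316, as these settings are built. Within 1 Mb of SAMD11, 4 genes were called lower after thinning to the smallest library and 2 to 4 when 1 library was left out (4 without control replicate 1), 1 was called higher with no filter on low counts, and the median ran from -0.202 to -0.107 (lowest without KO replicate 2). With a window of 0.5 Mb 0 were lower, and with 2 Mb 7.

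For the Polycomb list the median was -0.023 after thinning and -0.076 to 0.031 leaving out 1 library, with 0 to 1 called higher (0 without control replicate 2 or 3 or KO replicate 1 or 2). For the CUL3 adaptors it was 0.035 after thinning and 0.038 to 0.096, with 1 to 2 called lower and 0 to 1 higher. For the Notch list it was 0.008 with no filter and 0.020 to 0.069, and for the agrin list 0.302 with no filter. The cause was not tested. FOXC1 lost its adjusted p under 0.05 without control replicate 2 (0.0827) and without KO replicate 1 (0.0784).

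Same-numbered libraries were not stated to be paired in the sources used here. The correlations of their deviations from group means were -0.023, -0.0601 and 0.0466, which cannot show whether such libraries were prepared together. With the number as a block the log2 change of SAMD11 was -1.92 and of LINC02593 -1.56, and 1351 genes were called lower and 1200 higher. The block changed no call of a named gene. Low counts limit LINC02593 most (15 to 84 per library).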

Other observations

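Beyond the 1 Mb window, 13 genes were tested between 1 and 2 Mb from SAMD11, of which 5 fell (38.5%) and 11 (84.6%) had a log2 change below zero (median -0.38). Of all tested genes, 8.39% were called lower and 50.1% were below zero. They were named after their values were seen. PRKCZ, which encodes an atypical protein kinase C, had 7 ± 1.05 CPM in control and 3.58 ± 0.58 CPM in KO libraries (SD, n = 3) and fell by 0.951 on the log2 scale (SE 0.145, adjusted p 8.11e-06 in edgeR). PRKCZ-AS1, on the other strand of the same locus, fell too, at only 9 to 28 counts per library (-0.86, adjusted p 0.0319 in edgeR). TNFRSF14, the receptor HVEM of the TNF receptor superfamily, fell from 14.3 ± 1.14 to 10.6 ± 0.567 CPM (-0.43, adjusted p 0.00199 in edgeR). TNFRSF14-AS1 fell as well, at only 7 to 21 counts per library (-0.97, adjusted p 0.0408 in edgeR). MORN1 fell by less (-0.38, adjusted p 0.0255 in edgeR) and lay at the edge of the 1.3-fold threshold. SKI, which encodes a repressor of SMAD signaling, had a log2 change of 0.19 (adjusted p 0.0896) and did not pass the test. Each antisense gene was lower together with its partner, and without a stated strand setting their reads cannot be told apart.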
